A study of Mus musculus with 12 samples.

Results

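The genes described here are 10 RNA-binding regulators of splicing and mRNA stability, Rbfox1, Rbfox2, Rbfox3, Nova1, Nova2, Elavl1, Elavl2, Elavl3, Elavl4 and Ptbp1, out of 22317 gene symbols in the raw count table. They were chosen by name, and all 10 were found in the table. Of these, 7 are known mainly from neurons (Rbfox1, Rbfox3, Nova1, Nova2, Elavl2, Elavl3 and Elavl4), and 3 are widely expressed (Rbfox2, Elavl1 and Ptbp1). The question was how the neuronal genes and their widely expressed relatives differed across the 4 groups of the series.

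All mice were young adult wild-type BALB/c males, and injury was made by photothrombosis, in which a light-activated dye closes vessels under a laser. The libraries labelled SB2 and SB4 were described as brain cortex on day 2 and day 4 of an ischemic injury of the skull. The libraries labelled BS2 and BS6 were described as interparietal bone on day 2 and day 6 of an ischemic injury of the brain. Each group had 3 libraries, 12 in all, made from poly(A) RNA of tissue that held the ischemic and the surrounding region, so many cell types were mixed. Uninjured controls and the injured tissues themselves were not analysed here.

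The data went against the tissue labels of SB2 and BS2. The 5 measured osteoblast and osteocyte markers together reached 36021 to 41263 CPM (counts scaled to library size by TMM) in the libraries labelled SB2 and 19731 to 80351 CPM in those labelled BS6. The same sum was 7.65 to 10.5 CPM in SB4 and 10.4 to 18.0 CPM in BS2. The 12 neuron markers summed to 91.6 to 139 CPM in SB2 and 91.2 to 172 CPM in BS6, against 13578 to 14047 CPM in SB4 and 13114 to 13419 CPM in BS2. The libraries labelled SB2 and BS6 thus held mainly bone transcripts and those labelled SB4 and BS2 mainly brain transcripts, and the groups are named below by their labels only. Each comparison of days within a tissue label was at the same time a comparison of brain with bone transcripts, and the effects of day, injury and tissue cannot be told apart in it. In such bulk samples, fewer cells of a type and less RNA per cell cannot be told apart either.

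Alternative splicing joins the exons of a transcript in different combinations, and neurons use it more widely than most cells. The Rbfox proteins bind a short motif beside exons and promote or repress their inclusion by position. Rbfox3 is the neuronal nuclear antigen NeuN, Rbfox1 is found in neurons and in heart and skeletal muscle, and Rbfox2 is present in many tissues. The Nova proteins bind clusters of a short repeat through KH domains and control exons of synaptic proteins. The Elavl proteins bind AU-rich stretches and stabilise mRNAs: Elavl1 (HuR) is found in nearly all cells, and Elavl2, Elavl3 and Elavl4 (HuB, HuC and HuD) in neurons. Ptbp1 represses many neuronal exons in non-neuronal cells, and in differentiating neurons it gives way to its paralog Ptbp2.

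The relatives resemble each other closely in their RNA-binding parts, so the first question was whether reads of one could be counted for another. For each family, the most alike stretch of 60 bases of the coding sequence (mm10, GENCODE M21) is printed here, 5′ to 3′, with capitals at positions where members of the family differ. The Elavl stretch lies in the last RNA recognition motif and differs at 15 positions.
Elavl1: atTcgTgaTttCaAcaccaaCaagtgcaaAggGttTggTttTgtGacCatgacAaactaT
Elavl2: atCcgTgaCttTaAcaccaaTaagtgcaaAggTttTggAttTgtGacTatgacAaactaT
Elavl3: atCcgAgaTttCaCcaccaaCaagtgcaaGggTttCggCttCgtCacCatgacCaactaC
Elavl4: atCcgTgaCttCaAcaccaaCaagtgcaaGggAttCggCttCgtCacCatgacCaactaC
The Rbfox stretch, from the end of the RNA recognition motif, differs at 10 positions.
Rbfox1: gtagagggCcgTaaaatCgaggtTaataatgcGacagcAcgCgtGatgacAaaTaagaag
Rbfox2: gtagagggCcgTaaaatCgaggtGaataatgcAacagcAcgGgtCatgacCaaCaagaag
Rbfox3: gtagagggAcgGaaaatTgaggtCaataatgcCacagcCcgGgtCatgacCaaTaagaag
The Nova stretch, from the first KH domain, differs at 10 positions, and that of Ptbp1 and its neuronal relative Ptbp2 at 8 positions.
Nova1: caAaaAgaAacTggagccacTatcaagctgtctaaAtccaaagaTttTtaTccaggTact
Nova2: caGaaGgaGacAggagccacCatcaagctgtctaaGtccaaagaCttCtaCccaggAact
Ptbp1: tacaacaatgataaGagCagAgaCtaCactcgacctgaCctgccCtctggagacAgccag
Ptbp2: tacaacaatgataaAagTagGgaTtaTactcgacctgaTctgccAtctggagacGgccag
Over their aligned coding sequences, members of a family were identical at 69.6% (Nova1 and Nova2) to 78.1% (Elavl3 and Elavl4) of bases. No stretch of 50 bases in the transcripts of any of the 10 genes was shared with a listed relative. Other genes shared 4.75% of the 50-base stretches of Ptbp1, all with the pseudogenes Gm4900 and Gm18815, 3.11% of those of Elavl3 and 3.00% of those of Nova1. Where strand was not used in counting, reads of an overlapping antisense gene cannot be told apart from those of the gene itself. Such overlap covered 31.7% of the exonic length of Nova2 (with Gm26821) and 20.7% of that of Ptbp1 (with E130317F20Rik, Gm17134 and Plppr3), so their values carry this uncertainty.

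The 250 bases before the transcription start are shown for 4 genes that stand for the patterns below: the widely expressed Elavl1 and Ptbp1, the neuronal Elavl3, and Ptbp2. The windows are from RefSeq (GRCm38.p6): chr8:4325101-4325350 on the minus strand for Elavl1, chr10:79854182-79854431 on the plus strand for Ptbp1, chr9:22052024-22052273 on the minus strand for Elavl3 and chr3:119783389-119783638 on the minus strand for Ptbp2. Capitals mark matches, on either strand and with overlaps counted, to the TATA box TATAAA, the CCAAT box CCAAT, the GC box GGGCGG, the E-box CACGTG, the YY1 core AAGATGG, and the letters CAGCACC and GGACAG from the ends of the Rest-binding element.
Elavl1: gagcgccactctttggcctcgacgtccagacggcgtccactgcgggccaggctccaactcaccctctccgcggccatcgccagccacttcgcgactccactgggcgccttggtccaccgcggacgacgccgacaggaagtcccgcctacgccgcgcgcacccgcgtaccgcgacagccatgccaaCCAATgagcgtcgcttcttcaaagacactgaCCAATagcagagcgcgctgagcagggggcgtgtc
Ptbp1: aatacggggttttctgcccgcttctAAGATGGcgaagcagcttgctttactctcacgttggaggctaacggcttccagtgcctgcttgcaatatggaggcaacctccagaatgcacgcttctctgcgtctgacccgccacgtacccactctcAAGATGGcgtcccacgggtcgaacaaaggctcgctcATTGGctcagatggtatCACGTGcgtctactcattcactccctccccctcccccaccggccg
Elavl3: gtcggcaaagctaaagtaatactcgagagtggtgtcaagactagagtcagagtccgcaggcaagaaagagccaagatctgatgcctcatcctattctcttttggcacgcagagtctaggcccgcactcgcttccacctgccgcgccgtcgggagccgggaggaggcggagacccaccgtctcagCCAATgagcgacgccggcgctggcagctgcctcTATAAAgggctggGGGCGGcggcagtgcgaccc
Ptbp2: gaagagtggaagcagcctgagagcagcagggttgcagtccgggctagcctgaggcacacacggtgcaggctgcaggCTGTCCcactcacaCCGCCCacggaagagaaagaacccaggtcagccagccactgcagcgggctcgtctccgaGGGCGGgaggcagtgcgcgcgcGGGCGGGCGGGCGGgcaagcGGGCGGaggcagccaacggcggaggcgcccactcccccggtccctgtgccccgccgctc
Elavl1 held 2 CCAAT boxes and no other of these motifs. Ptbp1 held 2 copies of AAGATGG, 1 CACGTG and 1 CCAAT box. Elavl3 held 1 TATA box, 1 CCAAT box and 1 GC box. Ptbp2 held 6 GC boxes and 1 GGACAG. Of 32851 promoter windows of this length, 12.4% held TATAAA, 33.8% CCAAT, 32.7% GGGCGG, 6.02% CACGTG, 4.49% AAGATGG, 5.73% CAGCACC and 18.7% GGACAG. The Elavl1 window also held 31 CpG dinucleotides, more than 94.8% of the windows, whose median was 6. These matches are descriptions of letters only.

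The neuronal Rbfox genes were high in both groups with brain transcripts and low in both groups with bone transcripts, Rbfox3 more so than Rbfox1 in SB2. Rbfox3 (chr11:118489762-118911597, minus strand) was at 0.909, 0.919 and 0.665 CPM in the libraries labelled SB2 and at 291, 301 and 313 CPM in SB4. It was at 305, 333 and 296 CPM in BS2 and at 1.07, 5.63 and 0.582 CPM in BS6, where replicate 2 stood above the other two. Rbfox1 (chr16:5885355-7411526, plus strand) was at 9.49, 10.6 and 3.21 CPM in SB2, 319, 358 and 356 CPM in SB4, 328, 320.0 and 340.02 CPM in BS2 and 2.87, 3.56 and 2.78 CPM in BS6. In SB2 its replicates 1 and 2 lay above replicate 3 and above all libraries labelled BS6.

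Rbfox2 (chr15:77078990-77307004, minus strand), the widely expressed member, was far from absent anywhere. Its level was 200.4, 206 and 217 CPM in SB2, 371, 376 and 379 CPM in SB4, 361, 352 and 374 CPM in BS2 and 228, 120.4 and 196 CPM in BS6. All libraries with brain transcripts lay above all with bone transcripts, and replicate 2 of BS6 was the lowest.

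The Nova genes were also higher with brain transcripts, Nova2 by less than Nova1. Nova1 (chr12:46694517-46818929, minus strand) was at 1.99, 1.31 and 0.726 CPM in SB2, 121, 115 and 119.5 CPM in SB4, 129.5, 111 and 126 CPM in BS2 and 1.73, 3.50 and 0.647 CPM in BS6. Nova2 (chr7:18925888-18965319, plus strand) was at 6.93, 5.64 and 6.47 CPM in SB2, 66.4, 68.2 and 71.3 CPM in SB4, 67.6, 65.3 and 63.2 CPM in BS2 and 7.81, 6.94 and 6.85 CPM in BS6. Nova2 thus varied little among the libraries with bone transcripts, in which Nova1 ranged more widely.

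The neuronal Elavl genes had 36 counts or fewer in each bone-transcript library, apart from Elavl3 (122 counts) and Elavl4 (43 counts) in BS6 replicate 2. Elavl2 (chr4:91250763-91400785, minus strand) was at 0.511, 0 and 0.302 CPM in SB2, 118, 107 and 111 CPM in SB4, 116, 108 and 115 CPM in BS2 and 0, 0.938 and 0.0647 CPM in BS6. Elavl3 (chr9:22015005-22052023, minus strand) was at 0.909, 2.36 and 0.302 CPM in SB2, 231, 222 and 225 CPM in SB4, 208, 224 and 207 CPM in BS2 and 1.07, 7.63 and 0 CPM in BS6. Elavl4 (chr4:110203722-110351909, minus strand) was at 0.170, 0.262 and 0.181 CPM in SB2, 164, 163 and 168 CPM in SB4, 158, 151 and 161 CPM in BS2 and 0.200, 2.69 and 0 CPM in BS6. A count of 0 allows up to 3 counts, which correspond to 0.158 to 0.217 CPM in these libraries, and this limit covers counting error only. Elavl4 had 3, 4 and 3 counts in SB2 and 3, 43 and 0 counts in BS6, so its level in 5 of these 6 libraries rested on 4 counts or fewer.

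Elavl1 (chr8:4285382-4325413, minus strand), the widely expressed member, differed least between the groups. Its level was 79.5, 71.0 and 83.8 CPM in SB2, 93.1, 91.7 and 97.7 CPM in SB4, 97.4, 90.5 and 93.0 CPM in BS2 and 62.3, 59.8 and 65.9 CPM in BS6. Ptbp1 (chr10:79854427-79864771, plus strand) ran the other way from all other members. It was at 227, 186 and 213 CPM in SB2, 23.1, 19.6 and 23.4 CPM in SB4, 20.6, 21.6 and 19.3 CPM in BS2 and 169, 169 and 161 CPM in BS6. The libraries with bone transcripts did not overlap those with brain transcripts for either gene.

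**Figure D1:**
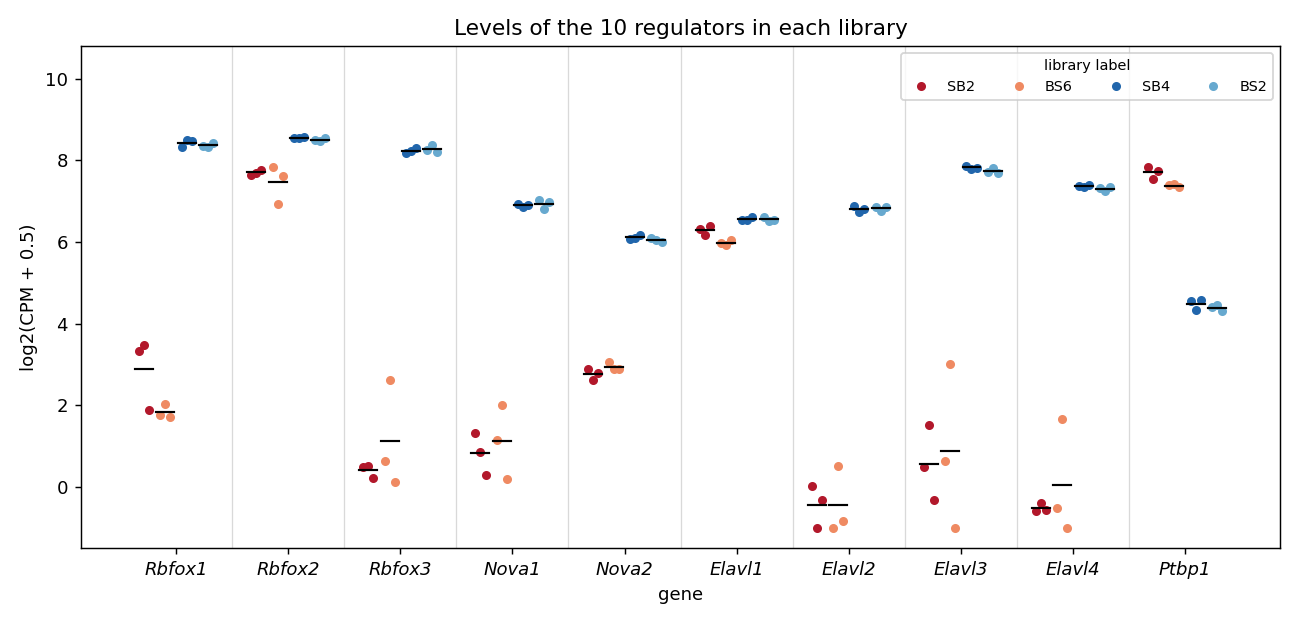
Level of each of the 10 genes in each library, as log2(CPM + 0.5), by library label, with points for the 3 libraries of a group and a bar at their mean. The 7 neuronal genes and, by less, Rbfox2 and Elavl1 are lower in SB2 and BS6 than in SB4 and BS2, and Ptbp1 is 161 CPM or more in SB2 and BS6 and 23.4 CPM or less in SB4 and BS2.

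Per kb of exonic length, the 10 genes had the same order in both groups with brain transcripts. In SB4 the order was Rbfox1 (78.3 ± 4.96 CPM per kb, SD, n = 3), Rbfox3 (51.8 ± 1.82), Rbfox2 (46.1 ± 0.454), Elavl3 (32.8 ± 0.664), Elavl4 (30.6 ± 0.440), Nova1 (13.6 ± 0.371), Elavl2 (13.5 ± 0.698), Elavl1 (9.09 ± 0.304), Nova2 (8.20 ± 0.296) and Ptbp1 (4.65 ± 0.439). Only Nova1 and Elavl2 overlapped as neighbours in this order, in SB4 and in BS2. In SB2, Ptbp1 came first with 44.1 ± 4.38 CPM per kb, followed by Rbfox2 with 25.6 ± 1.07 and Elavl1 with 7.54 ± 0.630. Below them no member exceeded 1.76 ± 0.903 CPM per kb, the level of Rbfox1. In BS6 the first 3 places were the same, with 35.1 ± 0.966 CPM per kb for Ptbp1, 22.3 ± 6.77 for Rbfox2 and 6.05 ± 0.296 for Elavl1, and the places from Rbfox1 downwards overlapped with their neighbours. Divided by the longest transcript in place of all exons, Elavl2 (26.7 CPM per kb) passed Nova1 (16.6) in SB4, where Nova1 and Elavl1 (16.4) then lay close together, and Rbfox1 (1.003) passed Nova2 (0.860) in BS6. The family shares that follow rest on the length of all exons, unless stated.

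The make-up of each family, as the share of each member in the summed level per kb, was a description of which paralog dominated. Rbfox2 made up 90.8% to 96.9% of the Rbfox family in SB2 and 89.3% to 97.1% in BS6, but 25.7% to 27.1% in SB4 and 24.99% to 26.4% in BS2. Elavl1 made up 94.6% to 98.6% of the Elavl family in SB2 and 10.3% to 10.9% in SB4. In BS2 its share was 10.6% to 11.3%, and in BS6 it was 96.9%, 77.0% and 99.9%, where the lower value was replicate 2. The summed level of the Elavl family was 86.0 ± 1.61 CPM per kb in SB4 and 7.78 ± 0.491 in SB2, so the change in make-up went with a lower total. Nova2 was the larger part of the Nova family in SB2 (78.5% to 90.3%) and BS6 (67.4% to 91.7%) and the smaller part in SB4 (36.4% to 38.4%) and BS2 (34.4% to 38.0%).

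In the Ptbp family, Ptbp1 and Ptbp3 were higher with bone transcripts and Ptbp2 with brain transcripts. Ptbp1 was 63.0% to 68.1% of their summed level per kb in SB2 and 49.8% to 60.4% in BS6, against 19.99% to 21.5% in SB4 and 17.9% to 18.6% in BS2. Ptbp2 was 60.3% to 62.8% in SB4 and 61.1% to 62.9% in BS2, against 6.63% to 8.39% in SB2 and 8.70% to 9.78% in BS6. Ptbp3 was 23.9% to 28.6% in SB2 and 29.9% to 41.5% in BS6, against 17.2% to 18.1% in SB4 and 19.2% to 20.3% in BS2. Divided by the longest transcript, the Ptbp2 share was 10.4% to 13.2% in SB2 and 14.1% to 15.3% in BS6, and the Ptbp3 share fell to 9.82% to 10.5% in SB4 and 11.03% to 11.8% in BS2, with the direction between the groups kept. Their summed level was 22.3 ± 1.38 CPM per kb in SB4 and 66.6 ± 4.48 in SB2.

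**Figure D2:**
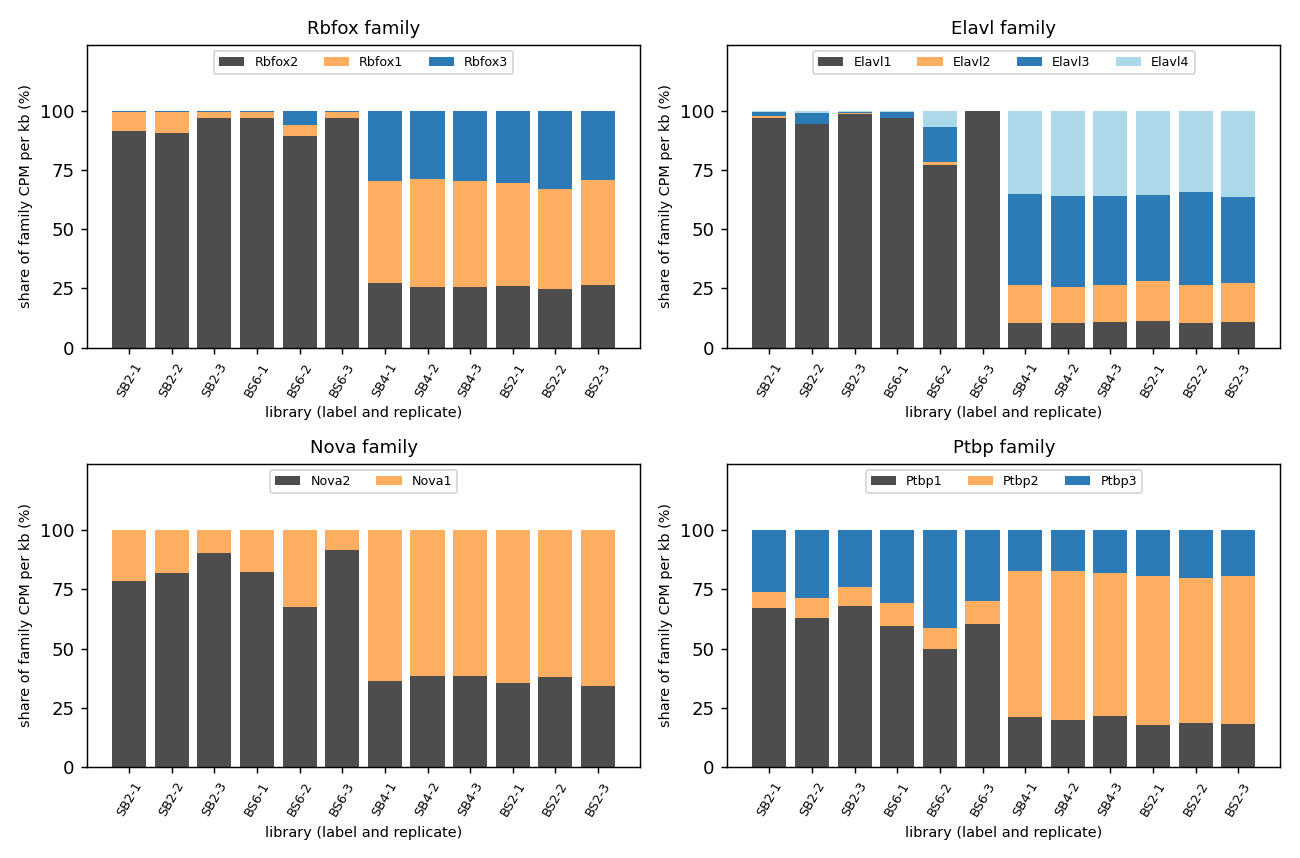
Share of each paralog in the summed CPM per kb of its family, in percent, for each library by label and replicate. Dark grey marks Rbfox2, Elavl1, Nova2 and Ptbp1, whose share is larger in every library labelled SB2 or BS6 than in any labelled SB4 or BS2, with BS6 replicate 2 (77.0% Elavl1) as the mildest case for the Elavl family.

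Between the days of the libraries labelled brain cortex, SB4 against SB2, 7 of the 10 members were called higher and 1 lower. The call required a Benjamini-Hochberg adjusted p below 0.05 in edgeR's quasi-likelihood test together with a change of more than 1 on the log2 scale in either direction. Of all 17293 genes tested, 27.8% were called higher, 28.6% lower and 56.4% either way, and 84% had an unadjusted p under 0.05, as all 10 members did. The members' median log2 fold change was 5.97, that of all genes -0.01. The largest fitted change was that of Elavl4, 9.63 on the log2 scale (SE 0.12, adjusted p = 1.02e-12). Elavl4 had 3, 4 and 3 counts in SB2 and passed the filter on low counts only through SB4. The exact size of its change is therefore uncertain. Elavl2 followed with 8.60 (SE 0.27, adjusted p = 2.87e-09), Rbfox3 with 8.50 (SE 0.11, adjusted p = 1.02e-12) and Elavl3 with 7.61 (SE 0.36, adjusted p = 5.39e-06). Elavl2 had 9, 0 and 5 counts in SB2 and also passed the filter only through SB4, so its exact size is uncertain too. The same holds for Elavl3, with 16, 36 and 5 counts in SB2. The order below Elavl4 depended on single SB2 libraries: without replicate 2 the values were 8.08 for Elavl2, 8.58 for Rbfox3 and 8.52 for Elavl3, and without replicate 1 Elavl2 was at 9.41. Nova1 was higher by 6.46 (SE 0.18), Rbfox1 by 5.49 (SE 0.41) and Nova2 by 3.44 (SE 0.10). Ptbp1 fell by 3.23 on the log2 scale (SE 0.10, adjusted p = 5.88e-11), a 9.41-fold lower level.

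The widely expressed paralogs also passed the adjusted p in SB4 against SB2 but not the fold. Rbfox2 was 1.82-fold higher (log2 fold change 0.86, 95% interval 0.72 to 1.01, adjusted p = 2.44e-07 from edgeR). Elavl1 was 1.22-fold higher (log2 fold change 0.28, 95% interval 0.12 to 0.44, adjusted p = 0.00396 from edgeR). This call of Elavl1 depended on the scaling: with upper-quartile factors its log2 fold change was 0.15 and its adjusted p = 0.0725 from edgeR, whereas the adjusted p lay between 0.00165 and 0.0257 under the other alternatives. The ranges of the groups did not overlap for any of the 10 members, nor for 85.6% of all genes tested, so separation alone set no member apart.

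In the libraries labelled interparietal bone, BS6 against BS2, the directions were opposite: 7 of the 10 members were called lower and 1, Ptbp1, higher. Of 17311 genes tested, 26.5% were called lower, 29% higher and 55.5% either way, and 76.7% had an unadjusted p under 0.05, as all 10 members did. The members' median log2 fold change was -6.07, that of all genes 0.02. The log2 fold change was -8.33 for Elavl2 (SE 0.74, adjusted p = 9.98e-05), -7.31 for Elavl4 (SE 0.98, adjusted p = 0.000638), -6.99 for Rbfox3 (SE 0.83, adjusted p = 0.000368) and -6.74 for Rbfox1 (SE 0.15, adjusted p = 2.75e-06), all from edgeR. It was -6.18 for Elavl3 (SE 1.17), -5.95 for Nova1 (SE 0.52) and -3.18 for Nova2 (SE 0.11). Ptbp1 was 8.12-fold higher (log2 fold change 3.02, SE 0.09, adjusted p = 3.35e-06 from edgeR). The ranges did not overlap for any of the 10 members, nor for 80.7% of all genes tested.

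Rbfox2 lay at the fold threshold in BS6 against BS2. Its log2 fold change of -0.998 (95% interval -1.56 to -0.43, adjusted p = 0.00757 from edgeR) stopped just short of it, so that it was not called, and leaving out BS6 replicate 1 moved it to -1.19, leaving out replicate 2 to -0.77. Elavl1 fell by 0.58 on the log2 scale (95% interval -0.79 to -0.37, adjusted p = 0.000981 from edgeR), a 1.49-fold lower level. The fits of the scarcest genes rested on replicate 2 of BS6: without it, the log2 fold change was -11.42 for Elavl2, -10.51 for Elavl4, -8.63 for Elavl3 and -8.54 for Rbfox3. In BS6, Elavl2 had 0, 15 and 1 counts and Elavl4 3, 43 and 0 counts. Elavl3 had 16, 122 and 0 counts there, Rbfox3 16, 90 and 9 and Nova1 26, 56 and 10. All of these passed the filter on low counts only through BS2, so the exact sizes of their changes are uncertain.

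**Figure D3:**
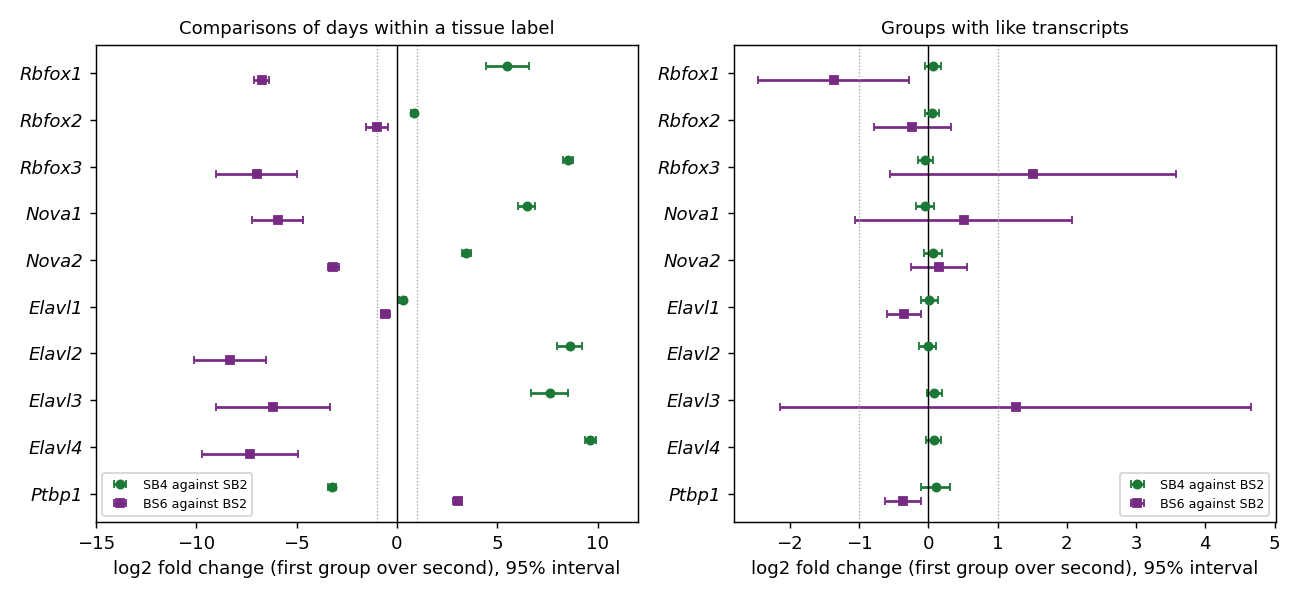
Log2 fold change of each member with its 95% interval from edgeR, for the comparisons of days within a tissue label (left) and for groups with like transcripts (right), with dotted lines at the fold threshold. On the left the 7 neuronal genes lie beyond 3 on either side, in opposite directions for both comparisons, and on the right the SB4 against BS2 values lie between -0.04 and 0.10.

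No library was shared between both comparisons of days. The difference between the changes, (BS6 minus BS2) minus (SB4 minus SB2), was called for 9 of the 10 members over all 12 libraries, where 73.6% of all genes were called. It was lower for 8 members, as for 35.8% of all genes, and higher for Ptbp1, as for 37.8%, and Elavl1 passed the adjusted p only.

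**Figure D4:**
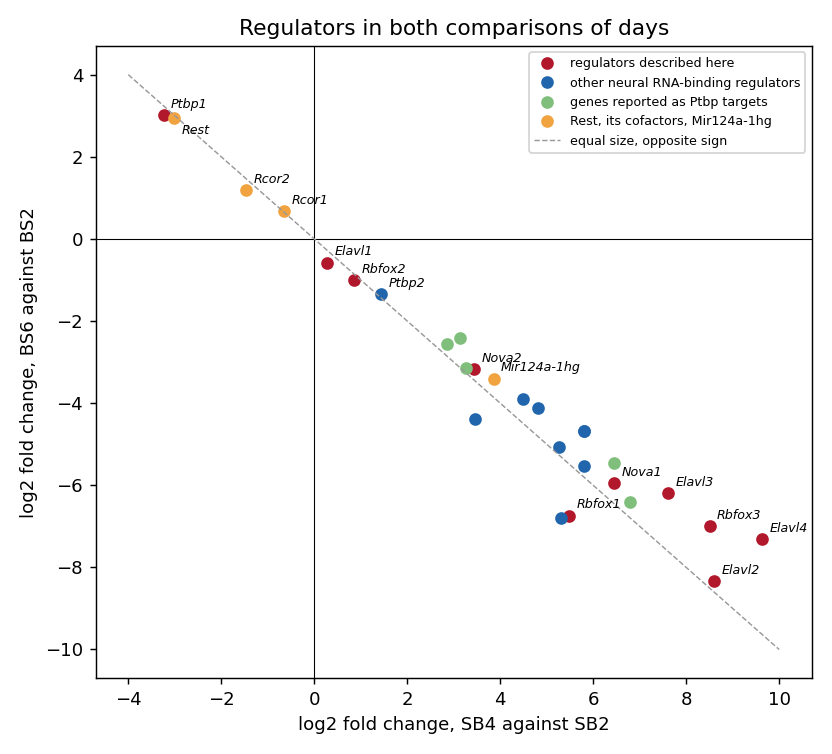
Log2 fold change in SB4 against SB2 (horizontal) and in BS6 against BS2 (vertical) for the 10 members, other neural regulators, genes reported as Ptbp targets, and Rest with its cofactors and Mir124a-1hg. All points have opposite signs in both comparisons, from Ptbp1 (-3.23 and 3.02), near the dashed line of equal size, to Elavl4 (9.63 and -7.31), farthest from it, with Rbfox3, Elavl3, Rbfox1 and several other genes also off the line.

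Between groups with like transcripts, no member was called by edgeR. In SB4 against BS2, both with brain transcripts, 0 of the 10 members were called by edgeR, and 0 had an unadjusted p under 0.05. Of 16278 genes tested 0.086% were called higher, 0.0614% lower and 0.147% either way, 11.9% had an unadjusted p under 0.05, and DESeq2 called 0 members as well. The log2 fold changes ran from -0.04 (Nova1 and Rbfox3) to 0.10 (Ptbp1), and the 95% intervals reached from -0.17 (Nova1) to 0.31 (Ptbp1), so larger differences lay outside them. Of the members, only Elavl4 had ranges that did not overlap (150.9 to 161 CPM in BS2 and 163 to 168 CPM in SB4), as 16.9% of all genes did. The members' median log2 fold change was 0.06, that of all genes -0.002.

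In BS6 against SB2, both with bone transcripts, 8 of the 10 members passed the filter on low counts, and 0 of them were called by edgeR, where 1.11% of 16329 genes were called higher, 0.741% lower and 1.86% either way. Elavl2 and Elavl4 did not pass the filter. Elavl1 was lower in BS6 by 0.35 on the log2 scale (log2 fold change -0.35, 95% interval -0.59 to -0.11, adjusted p = 0.0865 from edgeR). Ptbp1 had a log2 fold change of -0.36 (95% interval -0.62 to -0.10, adjusted p = 0.0956) and Rbfox1 of -1.36 (95% interval -2.45 to -0.28, adjusted p = 0.115). These 3 members had an unadjusted p under 0.05, as 29.2% of all genes did. Under DESeq2, and in a fit of all 12 libraries, Rbfox1 was called lower. The log2 fold change was -0.23 for Rbfox2 (95% interval -0.79 to 0.32) and 0.15 for Nova2 (95% interval -0.26 to 0.55). The intervals of Elavl3 (-2.14 to 4.66), Rbfox3 (-0.55 to 3.57) and Nova1 (-1.05 to 2.08) were wider. The ranges of Elavl1 and Ptbp1 did not overlap between these groups, as for 38.1% of all genes.

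Rbfox1 in the libraries labelled SB2 moved with muscle markers. The 5 measured skeletal muscle markers summed to 1469, 1688 and 219 CPM in replicates 1, 2 and 3 of SB2, in which Rbfox1 was at 9.49, 10.6 and 3.21 CPM. In BS6 the same sum was 61.7, 48.0 and 380.0 CPM, with Rbfox1 at 2.87, 3.56 and 2.78 CPM. All 5 markers had counts in every library of both groups. Rbfox1 was thus higher in the SB2 libraries with the highest muscle sums, but not in the BS6 library with the highest sum of its group, and the part of muscle RNA in the Rbfox1 values was not tested. The members Rbfox3, Nova1 and Elavl3, as well as Kif5a, were also lowest in SB2 replicate 3. Of the 12 neuron markers, so were Nefl, Nefm, Gap43, Syn1, Camk2a and Gad1. Camk2a was at 52.0, 36.4 and 18.0 CPM. Snap25 (21.8, 8.79 and 24.6 CPM), Syt1, Stmn2, Tubb3, Map2 and Slc17a7 were instead lowest in SB2 replicate 2.

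Among the BS6 libraries, Elavl2, Elavl3, Elavl4, Rbfox1, Rbfox3 and Nova1 were highest in replicate 2, a library that also differed in markers of several cell types. In replicates 1, 2 and 3, Elavl3 had 16, 122 and 0 counts, Rbfox3 16, 90 and 9 counts and Elavl4 3, 43 and 0 counts. Nova1 had 26, 56 and 10 counts, Elavl2 0, 15 and 1 counts and Rbfox1 43, 57 and 43 counts. Nova2, with 117, 111 and 106 counts, was not highest in replicate 2. In the same libraries the 12 neuron markers summed to 91.2, 172 and 98.7 CPM, the 5 oligodendrocyte markers to 123, 279 and 111 CPM, and Gad1, the enzyme of GABA synthesis in inhibitory neurons, was at 1.13, 26.5 and 0 CPM. Both sums and the Gad1 level were highest in replicate 2. The 4 measured leukocyte and dividing marrow markers were highest there as well, with sums of 751, 6955 and 1358 CPM, of which the neutrophil granule gene Ngp made up 6156 CPM in replicate 2. The osteoblast and osteocyte sum was lowest there (56796, 19731 and 80351 CPM). The sum of the 5 astrocyte markers was lowest there too (511, 290 and 703 CPM), but it was carried by Gja1, a gap junction gene that bone cells also express. The other 4 astrocyte markers were each highest in replicate 2, among them the water channel Aqp4 at 2.80, 10.1 and 2.33 CPM and Gfap at 9.07, 15.4 and 6.47 CPM. Without replicate 2, the log2 fold changes in BS6 against SB2 turned to -1.18 for Elavl3, -0.05 for Rbfox3 and -0.21 for Nova1, from 1.26, 1.51 and 0.51 with it. The part of neural or marrow RNA in these values was not tested.

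**Figure D5:**
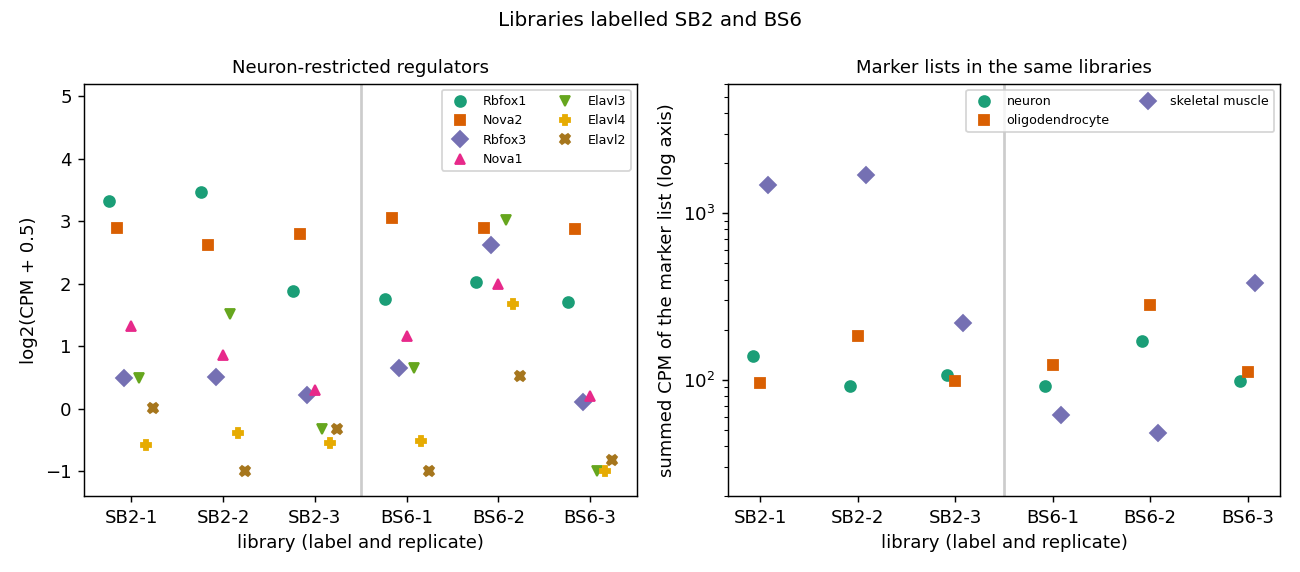
The 7 neuronal genes as log2(CPM + 0.5) (left) and the summed CPM of 3 marker lists on a log axis (right) in the 6 libraries labelled SB2 and BS6. BS6 replicate 2 has the highest Rbfox3, Elavl3, Elavl4 and neuron marker sum (172 CPM), and SB2 replicates 1 and 2 have the highest Rbfox1 and muscle marker sums (1469 and 1688 CPM).

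The levels with bone transcripts were also expressed relative to the matching brain-transcript group. Rbfox3, Elavl2, Elavl3 and Elavl4 in SB2 were at 0.124% (Elavl4) to 0.527% (Elavl3) of their mean in SB4. The 12 neuron markers were at 0.162% to 4.96% there, with a median of 0.644%. In BS6, relative to BS2, these members were at 0.296% (Elavl2) to 1.36% (Elavl3) and the neuron markers at 0.416% to 2.92%, median 0.931%. Without BS6 replicate 2 the members were at 0.0286% to 0.265% and the neuron markers at a median of 0.695%. Nova1 was at 1.13% and 1.60% in SB2 and BS6, the latter 0.974% without BS6 replicate 2, and Rbfox1 at 2.25% and 0.933%.

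Nova2 stood apart from the other neuronal members in this measure, at 9.25% in SB2 and 11.02% in BS6. Nova2 is also known from endothelial cells, and the 3 endothelial markers summed to 391 to 419 CPM in SB2 and 418 to 546 CPM in BS6, against 49.99 to 64.7 CPM in SB4 and 37.6 to 60.1 CPM in BS2. Pecam1 and Cdh5 carried this difference. Cldn5 was at 15.7 to 21.2 CPM in SB2 and 18.6 to 26.7 CPM in SB4, and at 23.7 to 35.3 CPM in BS6 and 14.9 to 24.4 CPM in BS2, with overlap in both pairs. The part of endothelial RNA, or of the antisense Gm26821, in the Nova2 counts was not tested. Rbfox2 was at 55.4% and 50.03%, Elavl1 at 82.9% and 66.9%, and Ptbp1 at 948% and 812%.

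Set against the neuron markers within each library, Nova2 shifted by more than the other neuronal members. The measure was the log2 level of a member minus the mean log2 level of the 12 neuron markers, with a pseudocount of 0.5 CPM. For Elavl3 it was -1.98 ± 0.982 (SD, n = 3) in SB2, -1.57 ± 0.0298 in SB4, -1.57 ± 0.0539 in BS2 and -1.67 ± 1.41 in BS6, so its groups overlapped. For Nova2 it was 0.23 ± 0.0595 in SB2 and -3.28 ± 0.0459 in SB4, and 0.38 ± 0.748 in BS6 and -3.27 ± 0.0602 in BS2, without overlap in either comparison. Nova1 did not overlap in either comparison and had the same direction, with -1.72 ± 0.433 in SB2 and -2.49 ± 0.0377 in SB4, and -1.44 ± 0.487 in BS6 and -2.37 ± 0.128 in BS2. For Rbfox1 it was 0.35 ± 0.864 in SB2 and -0.96 ± 0.0910 in SB4, without overlap, but -0.73 ± 0.534 in BS6 and -0.94 ± 0.0476 in BS2, with overlap. Rbfox3 likewise did not overlap in SB4 against SB2 (-1.15 ± 0.0452 and -2.14 ± 0.197) but did in BS6 against BS2. For Elavl2 and Elavl4 the sign of the difference depended on the pseudocount in both comparisons of days. With 3 against 3 libraries the two-sided exact permutation test cannot go below p = 0.1, which gave adjusted p = 0.25 over 40 comparisons, so none could pass.

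The log2 ratios of neuronal to widely expressed paralogs were higher in both groups with brain transcripts than in both with bone transcripts. Rbfox3/Rbfox2 was -7.30 ± 0.218 in SB2 and -0.32 ± 0.0365 in SB4, and -6.33 ± 1.76 in BS6 and -0.22 ± 0.130 in BS2. Elavl3/Elavl1 was -5.73 ± 1.04 in SB2 and 1.26 ± 0.0529 in SB4, and -5.09 ± 2.09 in BS6 and 1.18 ± 0.108 in BS2. Ptbp2/Ptbp1 was -2.14 ± 0.218 in SB2 and 2.49 ± 0.0803 in SB4, and -1.64 ± 0.0730 in BS6 and 2.70 ± 0.0551 in BS2. Every library with brain transcripts lay above every library with bone transcripts for these 3 ratios. Of the 7 ratios, Ptbp2/Ptbp1 was the only one whose groups did not overlap in SB4 against BS2 (difference -0.21) and in BS6 against SB2 (difference 0.51) as well. Single genes did not overlap in 16.9% and 38.1% of all genes tested in these comparisons, so this separation alone did not set the ratio apart. The smallest exact permutation p of 0.1 gave adjusted p = 0.175 over 28 comparisons, so none could pass here either.

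Other neural RNA-binding regulators followed the neuronal members. All 9 genes of this list (Ptbp2, Srrm3, Srrm4, Celf3, Celf4, Celf5, Celf6, Khdrbs2 and Khdrbs3) were called higher in SB4 against SB2 and lower in BS6 against BS2, with median log2 fold changes of 5.27 and -4.67, where 27.8% of all genes were called higher and 26.5% lower. Srrm4, which promotes the inclusion of neuronal microexons, was at 1.21 ± 0.211 CPM in SB2 and 67.4 ± 0.791 CPM in SB4 (log2 fold change 5.798). Its relative Srrm3 changed by 4.81, and the Celf proteins, which bind GU-rich RNA, by 4.499 (Celf3) to 5.81 (Celf6). Khdrbs2 and Khdrbs3, relatives of the RNA-binding protein Sam68, changed by 5.31 and 3.46. In BS6 against BS2 the log2 fold changes ran from -3.90 (Celf3) to -6.80 (Khdrbs2), apart from Ptbp2. Khdrbs2 had 1, 4 and 5 counts in SB2 and 0, 3 and 1 in BS6. Celf6 had 2, 4 and 8 counts in SB2 and 8, 12 and 7 in BS6. Both passed the filter on low counts only through the groups with brain transcripts, so the exact sizes of their changes are uncertain.

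Ptbp2 differed much less than the rest of that list. It was at 43.4, 48.1 and 48.9 CPM in SB2, 132, 119 and 127 CPM in SB4, 139.9, 137 and 131 CPM in BS2 and 51.8, 57.3 and 50.5 CPM in BS6. Its log2 fold change was 1.44 (SE 0.07) in SB4 against SB2 and -1.35 (SE 0.09) in BS6 against BS2, a 2.72-fold and a 2.55-fold difference. At 37.1% and 39.2% of the level in the matching group with brain transcripts, Ptbp2 lay between Nova2 and Rbfox2.

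Genes reported elsewhere as restrained by Ptbp1 through splicing differed in the direction opposite to Ptbp1, as general neuron markers did. Of all genes tested, 27.8% were called higher in SB4 against SB2 and 26.5% lower in BS6 against BS2. Ptbp2, Dlg4, Gabbr1, Vamp2, Sv2a and Kif5a were each called higher in SB4 against SB2 and lower in BS6 against BS2. All 12 neuron markers were called in these directions too, with median log2 fold changes of 7.31 and -6.75. A part of Ptbp1 in these differences was not tested and cannot be told apart from the tissue content. Dlg4, the postsynaptic scaffold PSD-95, was at 69.9 ± 1.95 CPM in SB2 and 664 ± 48.0 CPM in SB4. Of these, the kinesin Kif5a changed most in SB4 against SB2, by 6.79, followed by the synaptic vesicle protein Sv2a with 6.45. Vamp2, also of synaptic vesicles, changed by 2.87 and the GABA-B receptor subunit Gabbr1 by 3.14. In BS6 against SB2 Gabbr1 passed the adjusted p (log2 fold change 0.64, adjusted p = 0.0403 from edgeR) but not the fold.

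Rest, a repressor of neuronal genes in non-neuronal cells, had the direction of Ptbp1. It was at 49.995, 46.3 and 46.0 CPM in SB2, 6.399, 4.64 and 6.52 CPM in SB4, 6.64, 5.803 and 5.28 CPM in BS2 and 50.2, 40.0 and 46.7 CPM in BS6. Its log2 fold change was -3.01 (SE 0.12) in SB4 against SB2 and 2.95 (SE 0.15) in BS6 against BS2. Its cofactor Rcor2 was called in the same directions (-1.47 and 1.19), and Rcor1 passed only the adjusted p (-0.65 and 0.68). Rcor2 was at 28.8, 19.6 and 53.1 CPM in BS6. Of all genes tested, 28.6% were called lower and 27.8% higher in SB4 against SB2. In BS6 against BS2, 29% were called higher and 26.5% lower. Mir124a-1hg, a host transcript of the neuronal microRNA miR-124, which targets Ptbp1, was called higher in SB4 (3.86, SE 0.75) and lower in BS6 (-3.40, SE 0.24). It was at 29.2, 3.48 and 30.1 CPM in SB2, where replicate 2 stood below the others.

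Most widely expressed splicing factors did not pass the fold threshold. Of 38 tested in SB4 against SB2, 3 were called higher and 4 lower, with a median log2 fold change of -0.33, and of 39 tested in BS6 against BS2, 4 were called higher and 3 lower, with a median of 0.15, against 56.4% and 55.5% of all genes called either way. By the adjusted p alone, 10 were higher and 24 lower in SB4 against SB2, and 19 higher and 8 lower in BS6 against BS2. An unadjusted p under 0.05 was found for 34 of the 38 and 27 of the 39, as for 84% and 76.7% of all genes. Ptbp3, the haematopoietic relative of Ptbp1, changed by -2.15 and 2.22 in these comparisons, in the direction of Ptbp1, and Hnrnpf by -2.07 and 1.88. Srsf6 had their direction too (-1.10 and 1.01). Celf2 changed by 3.85 and -2.90, and Celf1 (1.08 and -1.18) and Tia1 (1.23 and -1.23) had its direction. Mbnl3, a muscleblind relative, was called higher in BS6 (3.27, SE 0.84) but was scarce. It had 1 to 11 counts in BS2 and 24 to 72 in BS6. It passed the filter on low counts only through BS6, so its exact size is uncertain.

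Among 20 regulators of mRNA stability and translation, of which 19 were tested, 6 were called higher and 5 lower in SB4 against SB2, and 5 higher and 6 lower in BS6 against BS2, near the 56.4% and 55.5% of all genes called either way. The Zfp36 family, which binds AU-rich elements as the Elavl proteins do but speeds mRNA decay, ran opposite to the neuronal Elavl genes. Zfp36 changed by -4.14 in SB4 against SB2 and 4.86 in BS6 against BS2, Zfp36l1 by -3.29 and 3.98, and Zfp36l2 by -2.90 and 3.00. Cpeb3 (3.40 and -3.10), Igf2bp3 (2.67 and -3.15) and Cpeb2 (2.48 and -2.37) had the direction of the neuronal Elavl genes. None of these lists had a called gene in SB4 against BS2 or BS6 against SB2, where 0.147% and 1.86% of all genes were called. Of the 9 neural regulators, 7 were tested in BS6 against SB2.

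The genes most like Rbfox3 over the 12 libraries, of 13042 compared, were Dock3, Elavl4, Fut9, Rtn1 and Scn1a. Likeness was the root mean square difference of log2(CPM + 1), centred on each gene's mean, and it was 0.154 for Dock3 and 0.162 for Elavl4, another member. The genes most like Ptbp1 were Elovl1 (0.123), Erbb2, Myo1c, Qsox1 and Ripk1 (0.166). Elovl1 was at 98.6, 10.96, 10.2 and 80.3 CPM in SB2, SB4, BS2 and BS6 on average.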

How the data were processed

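RNA-seq of 12 mouse libraries, 3 in each of 4 labelled groups, was analysed from the raw counts per gene symbol that the authors deposited. The authors cleaned the reads with fastp and mapped them with HISAT2 2.1.0 to mm10 (the submitters' processing notes). The counting program, annotation, use of strand and any batch correction of the deposited counts are not given in the sources used here. Every count column carried the title of its sample. Totals per library were 14126082 to 18972654 counts, and no library was a repeat of another.

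Counts were compared in R 4.3.3 with edgeR 4.0.16: filterByExpr (minimum count 10), TMM, robust quasi-likelihood test, 6 libraries in each comparison, Benjamini-Hochberg adjustment over all genes tested. Calls needed both an adjusted p below 0.05 and a change beyond 1 on the log2 scale. The fits were also run on simulated data, in which far fewer genes changed than in the comparisons of days and all libraries had the same spread. That run therefore does not give error rates for these comparisons. CPM used TMM factors over all 12 libraries. Lengths and coordinates are from GENCODE M21 (mm10), in which 22022 of 22317 symbols were found, and promoters from RefSeq, which matched 9 of the 10 members. Nothing in the labels says whether the replicates came from separate animals, although the methods call them biological, so p-values measure the spread between these libraries.

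The members that passed the filter on low counts are described in every comparison, some by their range. Every gene of the lists of neural regulators and of Rest with its cofactors is described, and of the Ptbp1-restrained genes all but 1, which is not reported here. Of the lists of widely expressed splicing factors and of stability regulators, the 3 highest and the 3 lowest called genes by log2 fold change are named in each comparison. The members and lists were chosen with earlier results of these data known. Alternatives were DESeq2 1.42.0, other scalings and filters, a fit of all 12 libraries, the adjusted p alone, the replicate number as a block, other pseudocounts, the longest transcript, and leaving out each library. The authors' batch correction was not repeated.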

Additional observations from a re-analysis of the deposited data

Results flagged for a closer look

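The change over days differed between the libraries labelled interparietal bone and those labelled brain cortex for all 10 members by a test of the difference itself (edgeR's quasi-likelihood contrast over 12 libraries, adjusted p at most 2.57e-05). With the fold threshold added, 9 of the 10 members were called, and 73.6% of all genes. The difference, BS6 minus BS2 less SB4 minus SB2 on the log2 scale, was -12.21 for Rbfox1, -1.85 for Rbfox2 and -15.47 for Rbfox3. It was -12.40 for Nova1 and -6.61 for Nova2. It was -0.85 for Elavl1, which did not pass the fold, -16.92 for Elavl2, -13.77 for Elavl3 and -16.92 for Elavl4. For the scarcest members the size rested on BS6 replicate 2, without which it was -20.03 for Elavl2, -20.14 for Elavl4, -16.23 for Elavl3 and -17.04 for Rbfox3. For Ptbp1 it was 6.27. Both groups of each pair also differed in bone against brain transcripts, in opposite order, so the difference cannot be told apart from that of the tissue content.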

How the results depend on the processing

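Both comparisons of days kept their gene counts within 1.5 times under every alternative run, and every member kept its direction there. With at least 10 counts required in every library, fewer members could be tested, and 4 were called higher in SB4 against SB2 and 3 lower in BS6 against BS2. Leaving out 1 library gave 7 to 8 members lower in BS6 against BS2. The eighth was Rbfox2, whose log2 fold change crossed the threshold under 8 alternatives. Total counts and upper-quartile scaling moved the median of all genes in SB4 against SB2 to -0.11 and -0.14, and Elavl1 and Rbfox2 kept their direction under both, but with upper-quartile scaling Elavl1 (0.15) no longer passed the adjusted p.

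In SB4 against BS2 the genes called higher numbered 14, and 29 by DESeq2, 3 in the fit of 12 libraries, 9 with at least 10 counts in every library, 26 without a filter, 22 with the replicate block, 93 by the adjusted p alone and 11 to 68 with 1 library left out. Those called lower numbered 10, and 17 by DESeq2, 5 in the fit of 12 libraries, 24 without a filter, 39 with the replicate block, 60 by the adjusted p alone and 7 to 47 with 1 library left out. In BS6 against SB2 the genes called higher numbered 182, and 752 by DESeq2, 947 in the fit of 12 libraries, 0 with the replicate block, 373 by the adjusted p alone and 0 to 397 with 1 library left out. Those called lower numbered 121, and 320 by DESeq2, 326 in the fit of 12 libraries, 0 with the replicate block, 559 by the adjusted p alone and 0 to 270 with 1 library left out. DESeq2 and the fit of 12 libraries each called 1 member lower there, Rbfox1. The cause of these shifts was not tested.

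Small values changed sign when 1 library was left out. In SB4 against BS2, leaving out each library in turn gave log2 fold changes of -0.073 to 0.0078 for Rbfox3, above 0 without BS2 replicate 2, and -0.11 to 0.0041 for Nova1, above 0 without BS2 replicate 1. It gave -0.0151 to 0.0428 for Elavl1, below 0 without SB4 replicate 3 or BS2 replicate 2, and -0.0484 to 0.0221 for Elavl2, above 0 without SB4 replicate 2, BS2 replicate 1 or BS2 replicate 3. In BS6 against SB2 the ranges were -0.0456 to 1.97 for Rbfox3, -0.21 to 0.92 for Nova1 and -1.18 to 2.21 for Elavl3, in each case below 0 only without BS6 replicate 2.

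Same-numbered libraries did not deviate together (correlations -0.131 to 0.0931), so the numbers were not taken as pairs. With the replicate block, Rbfox2 was called in BS6 against BS2 and no other member's call changed. Depth limits Elavl2 and Elavl4 in the libraries with bone transcripts, where most counts are at or near the floor.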
